A study of Mus musculus with 24 samples.

Results

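The 9 genes described here encode mitochondrial enzymes of the tricarboxylic acid (TCA) cycle on both sides of the step catalysed by 2-oxoglutarate dehydrogenase (OGDH). They were taken by gene symbol from the deposited table, Cs, Idh3a, Idh3b and Idh3g standing before 2-oxoglutarate in the cycle and Sucla2, Suclg1, Suclg2, Fh1 and Mdh2 after it. All 9 were found among the 53465 genes of the table, and all 9 were among the 14249 genes that passed the filter on low counts. RNA came from RN2 cells, a murine acute myeloid leukaemia line with the genotype Mll-Af9; NrasG12D, which every group shares. The Ogdh groups carried shOgdh346 (clones 1 and 5) or shOgdh2081 (clones 3 and 5), and the control group carried shRen713 (clones 2 and 7), each a short hairpin RNA delivered by a retrovirus and switched on with doxycycline. Cells were taken on day 4 of doxycycline and on day 0, untreated, with 2 libraries for each clone and day, so that 24 libraries form 6 groups of 4. Each hairpin is thus known from 2 clones, and the clone was taken as the replicate.

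In the TCA cycle, acetyl groups join oxaloacetate to form citrate, which is rearranged and oxidised to 2-oxoglutarate. The OGDH complex turns 2-oxoglutarate into succinyl-CoA, which then passes through succinate, fumarate and malate back to oxaloacetate. The cycle feeds electrons to the respiratory chain and supplies carbon for amino acids, haem and lipids. In leukaemia cells it also sets the level of 2-oxoglutarate, a cosubstrate of enzymes that remove methyl groups from DNA and histones.

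Of the 9 genes, 6 fell beyond the control between day 0 and day 4 and 0 rose, by the quasi-likelihood test of edgeR at an adjusted p under 0.05 (Benjamini-Hochberg, over all genes). They were Idh3a and Idh3g before 2-oxoglutarate, and Sucla2, Suclg1, Suclg2 and Fh1 after it. Over all genes tested, 19.8% were called lower in this comparison. Without control clone 7 the count was 3, made up of Idh3a, Idh3g and Fh1. The median net change of the 9 genes was -0.50, against -0.0020 for all genes tested, on the log2 scale. Fh1 and Suclg2 stood near the lower end, with 5.29% and 5.77% of all tested genes below them, while Mdh2 stood near the middle, with 53.4% below it. Cs, Idh3b and Mdh2 did not pass the test.

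Promoter sequence is shown for Fh1, which fell, for Mdh2, which did not pass the test, and for Suclg2 and Sucla2, the alternative beta subunits of succinyl-CoA synthetase, whose net changes were -0.98 and -0.46. Each run holds the 150 bases before the RefSeq start site, from the GRCm38.p6 table, written 5′ to 3′ on the strand of the gene. The Sucla2 and Mdh2 runs lie inside the deposited gene coordinates, which begin at 73525319 and 135778480. For Sucla2 the deposited start is far upstream, and sequence there was not examined. Capitals mark CCAAT boxes (CCAAT or its reverse complement ATTGG), GC boxes (GGGCGG or its reverse complement CCGCCC) and the cAMP response element (TGACGTCA).
Fh1 (chr1:175625636-175625785, minus strand): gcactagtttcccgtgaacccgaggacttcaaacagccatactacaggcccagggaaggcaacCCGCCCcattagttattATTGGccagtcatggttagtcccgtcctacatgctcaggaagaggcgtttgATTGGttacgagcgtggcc
Suclg2 (chr6:95718847-95718996, minus strand): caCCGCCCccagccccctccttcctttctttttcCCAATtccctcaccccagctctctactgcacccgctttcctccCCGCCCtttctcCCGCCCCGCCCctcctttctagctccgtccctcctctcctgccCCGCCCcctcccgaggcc
Sucla2 (chr14:73552636-73552785, plus strand): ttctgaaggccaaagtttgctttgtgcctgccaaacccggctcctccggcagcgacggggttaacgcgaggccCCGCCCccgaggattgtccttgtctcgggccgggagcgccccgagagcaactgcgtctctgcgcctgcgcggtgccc
Mdh2 (chr5:135778499-135778648, plus strand): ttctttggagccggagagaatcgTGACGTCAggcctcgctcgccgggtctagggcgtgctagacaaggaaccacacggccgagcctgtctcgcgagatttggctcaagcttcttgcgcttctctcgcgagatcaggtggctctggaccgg

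The Fh1 run holds 2 CCAAT boxes and 1 GC box, the Suclg2 run 1 CCAAT box and 5 GC boxes, a pair of which share a base, the Sucla2 run 1 GC box, and the Mdh2 run 1 cAMP response element and neither box. Promoter windows of 250 bases before and 50 bases after the start were matched for 8 of the 9 genes, all but Idh3a. In these windows CCAAT was found on either strand in 4 genes, Cs, Idh3b, Suclg2 and Fh1, against 37.4% of the 32851 windows in the table. GGGCGG was found in 5 genes, Cs, Sucla2, Suclg2, Fh1 and Mdh2, against 35.7% of windows. The ETS core CCGGAAG was found in Idh3b and Idh3g, against 8.86% of windows, and the cAMP response element TGACGTCA in Mdh2, against 1.79%. The NRF1 half-palindrome GCATGCGC (2.71% of windows) and the E-box CACGTG (7.15% of windows) were found in 0 of the 8. The capitals describe letters in the window and carry no measurement of factor binding.

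Libraries held 7209186 to 20705468 counts, and the lowest count of any of the 9 genes in any library was 151. Levels are given as CPM, counts scaled to a common library size by TMM, with libraries in the order of clones and of replicates 1 and 2. The targeted gene Ogdh (ENSMUSG00000020456, GRCm38 chromosome 11, 6291633 to 6356642, plus strand) stood on day 4 at 32.3 to 70.9 CPM in the 8 Ogdh-hairpin libraries and 206 to 253 CPM in the 4 control libraries. Its net change, the day 4 minus day 0 change of the Ogdh hairpins less that of the control, was -1.76 ± 0.18 on the log2 scale (SE; edgeR adjusted p = 0.000400; 95% interval -2.18 to -1.33). On day 0 Ogdh was already at 163 ± 34.2 CPM over the Ogdh clones (SD, n = 4), against 228 ± 27.4 CPM over the control clones (SD, n = 2). Markers of leukaemic myeloid cells were expressed throughout, at a summed 4530 to 8378 CPM in the Ogdh libraries and 10315 to 11263 CPM in the control libraries on day 4. The day 0 sums were 5448 to 10060 CPM and 6754 to 8075 CPM. By mean net change, 5 of these 10 markers were lower and 4 higher (19.8% and 17.9% of all genes). The 5 markers of T and NK cells summed to at most 0.77 CPM, with Cd3e and Ncr1 at 0 counts in every library. On day 4 the highest sums in Ogdh and control libraries were 660 and 336 CPM for monocytes and macrophages, 73.2 and 22.9 CPM for stromal cells, and 14.3 and 0.74 CPM for B cells. In bulk RNA, fewer cells of a type and less RNA per cell cannot be told apart.

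**Figure D1:**
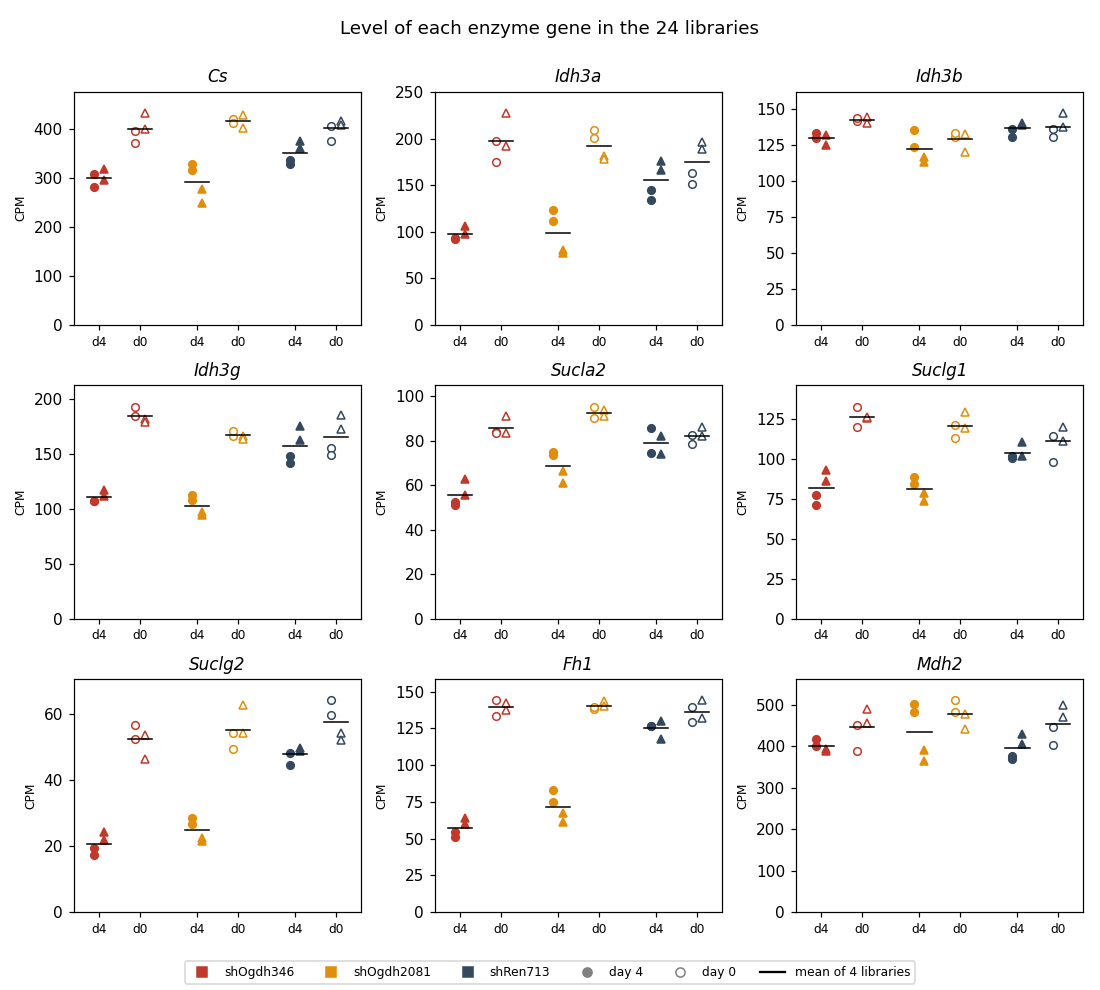
Level in CPM of each of the 9 genes in all 24 libraries, by hairpin and day (d4 left of d0); circles are the lower-numbered clone of the hairpin, triangles the higher-numbered one, and bars the mean of 4 libraries. Every day 4 library of the Ogdh hairpins lies below every day 4 control library for Idh3a, Idh3g, Suclg1, Suclg2 and Fh1, whereas Mdh2 libraries overlap. The share of all genes separated in this way was not computed.

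Cs (ENSMUSG00000005683, GRCm38 chromosome 10, 128337734 to 128362479, plus strand) encodes citrate synthase, which condenses acetyl-CoA with oxaloacetate at the entry of the cycle. Its day 4 levels were 283, 308, 295 and 318 CPM in the shOgdh346 libraries, 317, 329, 249 and 277 CPM in the shOgdh2081 libraries and 329, 337, 362 and 377 CPM in the control libraries. Before doxycycline the values were 397, 372, 434 and 400.1 CPM in the shOgdh346 libraries, 420.0, 413, 429 and 402 CPM in the shOgdh2081 libraries and 407, 377, 418 and 409 CPM in the control libraries. On day 4 the highest library was a control library, 7 of the 8 Ogdh-hairpin libraries lay below the lowest control library, and the libraries of shOgdh2081 clone 5 were the lowest; on day 0 the groups overlapped. The change within clones was -0.39 and -0.45 (shOgdh346 clones 1 and 5), -0.38 and -0.63 (shOgdh2081 clones 3 and 5) and -0.23 and -0.17 (shRen713 clones 2 and 7), lower in all 8 pairings of Ogdh and control clones. How many of all genes were lower in all 8 pairings was not computed, here or for the genes below. The mean net change was -0.26 ± 0.10 on the log2 scale (SE; edgeR adjusted p = 0.0768; 95% interval -0.49 to -0.03), which missed the threshold. Within each Ogdh hairpin, without subtracting the control, Cs fell by 0.42 with shOgdh346 (edgeR adjusted p = 0.00231) and by 0.50 with shOgdh2081 (edgeR adjusted p = 0.00109), while the control changed by -0.20 (edgeR adjusted p = 0.187).

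The NAD-dependent isocitrate dehydrogenase IDH3, which makes 2-oxoglutarate from isocitrate, is built of a catalytic alpha subunit (Idh3a) and the beta and gamma subunits (Idh3b and Idh3g). Transcripts of the alpha and gamma subunits fell beyond the control and that of the beta subunit did not pass the test.

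Idh3a (ENSMUSG00000032279, GRCm38 chromosome 9, 54586334 to 54604661, plus strand) was measured on day 4 at 92.8, 92.0, 106 and 97.4 CPM in the shOgdh346 libraries, 124, 112, 77.1 and 80.1 CPM in the shOgdh2081 libraries and 144, 135, 176 and 166 CPM in the control libraries. Untreated cells held 198, 175, 228 and 192 CPM in the shOgdh346 libraries, 209, 200.4, 181 and 178 CPM in the shOgdh2081 libraries and 163, 151, 197 and 189 CPM in the control libraries. All 8 Ogdh-hairpin libraries lay below the lowest control library on day 4, those of shOgdh2081 clone 5 lowest, and the groups overlapped on day 0. The mean level on day 4 was 98.3 ± 16.8 CPM over the Ogdh clones (SD, n = 4), against 155 ± 23.1 CPM over the control clones (SD, n = 2). Idh3a had a mean net change of -0.82 ± 0.11 on the log2 scale (SE; edgeR adjusted p = 0.000750; 95% interval -1.08 to -0.57), and by hairpin -0.86 ± 0.13 for shOgdh346 (edgeR adjusted p = 0.00140) and -0.79 ± 0.13 for shOgdh2081 (edgeR adjusted p = 0.00324). The change within clones was -1.05 and -1.02 (shOgdh346 clones 1 and 5), -0.78 and -1.16 (shOgdh2081 clones 3 and 5) and -0.17 and -0.18 (shRen713 clones 2 and 7).

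Idh3g (ENSMUSG00000002010, GRCm38 chromosome X, 73778963 to 73786897, minus strand) was measured on day 4 at 107, 107, 117 and 111 CPM in the shOgdh346 libraries, 112, 108, 94.0 and 97.1 CPM in the shOgdh2081 libraries and 142, 149, 163 and 175 CPM in the control libraries. The day 0 values were 193, 185, 182 and 179 CPM in the shOgdh346 libraries, 167, 171, 166 and 163 CPM in the shOgdh2081 libraries and 155, 149, 186 and 173 CPM in the control libraries. Again the Ogdh-hairpin libraries were all below the lowest control library on day 4 and overlapped with the control on day 0. The mean level on day 4 was 107 ± 7.78 CPM over the Ogdh clones (SD, n = 4), against 157 ± 17.2 CPM over the control clones (SD, n = 2). The mean net change of Idh3g was -0.63 ± 0.10 on the log2 scale (SE; edgeR adjusted p = 0.00119; 95% interval -0.84 to -0.41), and by hairpin -0.66 ± 0.11 for shOgdh346 (edgeR adjusted p = 0.00217) and -0.60 ± 0.11 for shOgdh2081 (edgeR adjusted p = 0.00495).

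Idh3b (ENSMUSG00000027406, GRCm38 chromosome 2, 130279309 to 130284547, minus strand) was measured on day 4 at 129.7, 133, 132 and 124 CPM in the shOgdh346 libraries, 124, 135, 113 and 116 CPM in the shOgdh2081 libraries and 136, 130.0, 140.3 and 139 CPM in the control libraries. Before doxycycline the values were 142, 144, 140.1 and 144 CPM in the shOgdh346 libraries, 130.4, 133, 120.1 and 132 CPM in the shOgdh2081 libraries and 130.2, 136, 137 and 147 CPM in the control libraries. The groups overlapped on both days, with 5 of the 8 Ogdh-hairpin libraries below the lowest control library on day 4. Idh3b had a mean net change of -0.09 ± 0.08 on the log2 scale (SE; edgeR adjusted p = 0.415; 95% interval -0.28 to 0.09), so that a fall larger than 0.28 lies outside the interval. The change within clones was -0.12 and -0.14 (shOgdh346 clones 1 and 5), -0.05 and -0.10 (shOgdh2081 clones 3 and 5) and -0.0049 and -0.02 (shRen713 clones 2 and 7); it was lower in all 8 pairings of Ogdh and control clones, by a small amount. Idh3b overlaps Nop56, a gene on the opposite strand that encodes a ribosome assembly factor, by 5 bases, and the strand setting of the counting is not given in the sources used here. The net change of Nop56 was -0.998 ± 0.114 (SE; edgeR adjusted p = 0.000318).

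The subunits of IDH3 were also set against each other as a ratio of levels per kilobase of transcript, for which CPM was divided by the deposited transcript length. These ratios restate the clone values above, and with 4 and 2 clones their test cannot pass 0.05. On day 4 the clones of shOgdh346 had 2.11 and 1.86 as their ratio of Idh3b to Idh3a, those of shOgdh2081 1.58 and 2.16, and those of shRen713 1.41 and 1.21. The day 0 ratios were 1.11 and 1.01 for shOgdh346, 0.96 and 1.04 for shOgdh2081, and 1.26 and 1.08 for shRen713. All 4 Ogdh clones were above both control clones on day 4 and 3 of them were below both on day 0, apart from shOgdh346 clone 1. The log2 ratio changed by 0.90 ± 0.14 in the Ogdh clones (SD, n = 4), against 0.16 ± 0.0021 in the control clones (SD, n = 2). The difference of 0.74 gave p = 0.0667 in a two-sided exact permutation test, the smallest p that the 15 splits of 6 clones allow, and 0.0933 after Benjamini-Hochberg adjustment over the 7 ratios computed. The log2 ratio of Idh3g to Idh3a differed by 0.20 between the groups (exact permutation p = 0.133, adjusted 0.156).

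Succinyl-CoA synthetase, the step that follows OGDH, pairs a shared alpha subunit (Suclg1) with either an ATP-forming beta subunit (Sucla2) or a GTP-forming beta subunit (Suclg2). All 3 transcripts fell beyond the control, Suclg2 with the largest estimate.

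Sucla2 (ENSMUSG00000022110, GRCm38 chromosome 14, 73525319 to 73596142, plus strand) was measured on day 4 at 52.4, 51.1, 62.6 and 55.8 CPM in the shOgdh346 libraries, 73.4, 74.9, 66.3 and 60.8 CPM in the shOgdh2081 libraries and 74.5, 85.8, 82.3 and 73.9 CPM in the control libraries. Untreated cells held 83.8, 83.5, 91.3 and 83.6 CPM in the shOgdh346 libraries, 95.4, 90.1, 93.9 and 91.1 CPM in the shOgdh2081 libraries and 82.4, 78.7, 86.1 and 81.9 CPM in the control libraries. On day 4 the Ogdh-hairpin libraries were low, with 7 of 8 below the lowest control library; a library of shOgdh2081 clone 3 lay within the control's range. Beyond the control, Sucla2 changed by -0.46 ± 0.10 on the log2 scale (SE; edgeR adjusted p = 0.00737; 95% interval -0.69 to -0.23), and by hairpin -0.56 ± 0.12 for shOgdh346 (edgeR adjusted p = 0.00644) and -0.36 ± 0.12 for shOgdh2081 (edgeR adjusted p = 0.0479). The call of Sucla2 for shOgdh2081 was kept in 20 of 36 alternatives, with an adjusted p of up to 0.290 by edgeR.

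Suclg1 (ENSMUSG00000052738, GRCm38 chromosome 6, 73248382 to 73276911, plus strand) was measured on day 4 at 77.6, 71.3, 92.8 and 86.1 CPM in the shOgdh346 libraries, 88.5, 84.5, 78.3 and 73.7 CPM in the shOgdh2081 libraries and 102, 100.5, 110.3 and 102 CPM in the control libraries. The day 0 values were 133, 120.2, 126 and 126 CPM in the shOgdh346 libraries, 121, 113, 129 and 119 CPM in the shOgdh2081 libraries and 114, 98.3, 119.8 and 111 CPM in the control libraries. All 8 Ogdh-hairpin libraries lay below the lowest control library on day 4, whereas on day 0 they overlapped with the control or lay above it. Suclg1 changed beyond the control by -0.50 ± 0.12 on the log2 scale (SE; edgeR adjusted p = 0.0106; 95% interval -0.77 to -0.23), and by hairpin -0.54 ± 0.14 for shOgdh346 (edgeR adjusted p = 0.0150) and -0.45 ± 0.14 for shOgdh2081 (edgeR adjusted p = 0.0379). For shOgdh2081 Suclg1 was called in 28 of 36 alternatives, with an adjusted p of up to 0.198 by edgeR. Without control clone 2 the mean net changes of Sucla2 and Suclg1 were -0.42 and -0.48 (edgeR adjusted p = 0.107 and 0.100), and without control clone 7 they were -0.53 and -0.54 (edgeR adjusted p = 0.0573 and 0.0724).

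Suclg2 (ENSMUSG00000061838, GRCm38 chromosome 6, 95473009 to 95718800, minus strand) was measured on day 4 at 19.4, 17.4, 24.3 and 21.9 CPM in the shOgdh346 libraries, 28.7, 26.7, 22.6 and 21.5 CPM in the shOgdh2081 libraries and 44.8, 48.2, 49.9 and 48.8 CPM in the control libraries. Before doxycycline the values were 56.9, 52.7, 53.6 and 46.5 CPM in the shOgdh346 libraries, 49.6, 54.4, 62.8 and 54.3 CPM in the shOgdh2081 libraries and 64.3, 59.7, 54.2 and 52.2 CPM in the control libraries. On day 4 the highest Ogdh-hairpin library was well below the lowest control library, while on day 0 the groups overlapped. The mean level on day 4 was 22.9 ± 4.04 CPM over the Ogdh clones (SD, n = 4), against 47.9 ± 2.15 CPM over the control clones (SD, n = 2). The mean net change of Suclg2 was -0.98 ± 0.19 on the log2 scale (SE; edgeR adjusted p = 0.00433; 95% interval -1.41 to -0.55), and by hairpin -1.08 ± 0.22 for shOgdh346 (edgeR adjusted p = 0.00601) and -0.87 ± 0.22 for shOgdh2081 (edgeR adjusted p = 0.0195). The change within clones was -1.62 and -1.08 (shOgdh346 clones 1 and 5), -0.90 and -1.39 (shOgdh2081 clones 3 and 5) and -0.41 and -0.12 (shRen713 clones 2 and 7), the control clones themselves differing. Without control clone 7 the mean net change of Suclg2 was -0.84 (edgeR adjusted p = 0.0576).

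As a share of both beta subunits on the per-kilobase scale, Suclg2 made up 23.3% and 25.2% on day 4 in clones 1 and 5 of shOgdh346, 24.6% and 23.1% in clones 3 and 5 of shOgdh2081, and 33.3% and 35.2% in clones 2 and 7 of shRen713. On day 0 the shares were 36.4% and 32.99% for shOgdh346, 32.7% and 35.4% for shOgdh2081, and 39.9% and 35.3% for shRen713. Every Ogdh clone was below both control clones on day 4, and on day 0 the clones overlapped. The log2 ratio of Suclg2 to Sucla2 changed by -0.73 ± 0.19 in the Ogdh clones (SD, n = 4), against -0.21 ± 0.29 in the control clones (SD, n = 2), a difference of -0.52 (exact permutation p = 0.0667, the smallest possible; adjusted 0.0933). The ratio of Suclg2 to Suclg1 differed by -0.48 with the same exact permutation p of 0.0667. For Sucla2 to Suclg1 the difference was 0.04 (exact permutation p = 0.667).

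**Figure D2:**
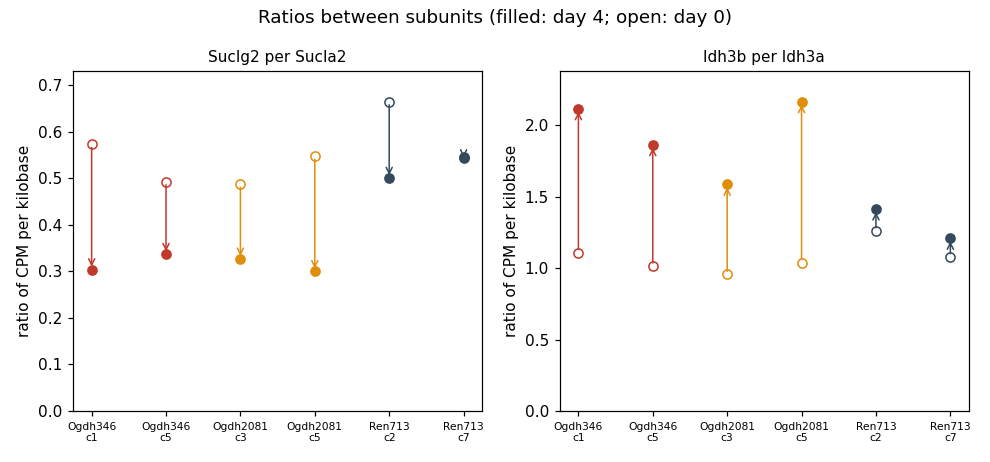
Ratio of levels in CPM per kilobase in each clone (c), Suclg2 to Sucla2 on the left and Idh3b to Idh3a on the right; filled points are day 4, open points day 0, and an arrow runs in the direction of time. In the 4 Ogdh clones the Suclg2 ratio stood at 0.30 to 0.34 on day 4 and the Idh3b ratio at 1.58 to 2.16.

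Fh1 (ENSMUSG00000026526, GRCm38 chromosome 1, 175600374 to 175625635, minus strand) encodes fumarate hydratase, which adds water to fumarate to form malate. Its day 4 levels were 54.6, 51.5, 64.2 and 60.0 CPM in the shOgdh346 libraries, 83.3, 75.0, 67.2 and 61.6 CPM in the shOgdh2081 libraries and 127, 126, 129.7 and 118 CPM in the control libraries. Untreated cells held 144, 133, 138 and 143 CPM in the shOgdh346 libraries, 138, 139, 144 and 140.2 CPM in the shOgdh2081 libraries and 139, 129, 132 and 144 CPM in the control libraries. The groups were well apart on day 4, the highest Ogdh-hairpin library at 83.3 CPM and the lowest control library at 118 CPM. On day 0 the libraries overlapped. By clone sum the Ogdh clones then stood slightly higher, at 138 to 141 CPM, against 134 and 137 CPM in the control clones. On day 4 its mean level was 65.0 ± 11.5 CPM over the Ogdh clones (SD, n = 4), against 125 ± 1.46 CPM over the control clones (SD, n = 2). On day 0 it was 140.0 ± 1.22 CPM over the Ogdh clones (SD, n = 4), against 135 ± 2.09 CPM over the control clones (SD, n = 2). Fh1 had a mean net change of -1.01 ± 0.12 on the log2 scale (SE; edgeR adjusted p = 0.000359; 95% interval -1.28 to -0.74), and by hairpin -1.18 ± 0.14 for shOgdh346 (edgeR adjusted p = 0.000417) and -0.84 ± 0.14 for shOgdh2081 (edgeR adjusted p = 0.00302). The change within clones was -1.42 and -1.16 (shOgdh346 clones 1 and 5), -0.79 and -1.12 (shOgdh2081 clones 3 and 5) and -0.08 and -0.14 (shRen713 clones 2 and 7), the largest fall being in shOgdh346 clone 1. Kmo, on the opposite strand and overlapping Fh1 by 5255 bases, had 2.01% as many counts as Fh1.

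Mdh2 (ENSMUSG00000019179, GRCm38 chromosome 5, 135778480 to 135790398, plus strand) encodes mitochondrial malate dehydrogenase, which regenerates oxaloacetate. Its day 4 levels were 400.5, 417, 388 and 394 CPM in the shOgdh346 libraries, 483, 500.4, 364 and 390.0 CPM in the shOgdh2081 libraries and 369.5, 376, 406 and 429 CPM in the control libraries. The day 0 values were 450.4, 389, 490.5 and 456 CPM in the shOgdh346 libraries, 510.5, 483, 477 and 440.3 CPM in the shOgdh2081 libraries and 445, 402, 498 and 469.9 CPM in the control libraries. Only 1 of the 8 Ogdh-hairpin libraries lay below the lowest control library on day 4, and the libraries of shOgdh2081 clone 3 were the highest. Mdh2 had a mean net change of 0.05 ± 0.11 on the log2 scale (SE; edgeR adjusted p = 0.758; 95% interval -0.20 to 0.30), so that a net fall larger than 0.20 lies outside the interval. The change within clones was -0.08 and -0.27 (shOgdh346 clones 1 and 5), -0.02 and -0.25 (shOgdh2081 clones 3 and 5) and -0.18 and -0.23 (shRen713 clones 2 and 7), lower in 4 of the 8 pairings of Ogdh and control clones. The log2 ratio of Fh1 to Mdh2, the enzymes of consecutive steps, changed by -0.97 ± 0.26 in the Ogdh clones (SD, n = 4), against 0.09 ± 0.0076 in the control clones (SD, n = 2). The difference of -1.06 gave an exact permutation p of 0.0667, and that of Cs to Mdh2, -0.31, gave the same p (adjusted 0.0933 for both).

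**Figure D3:**
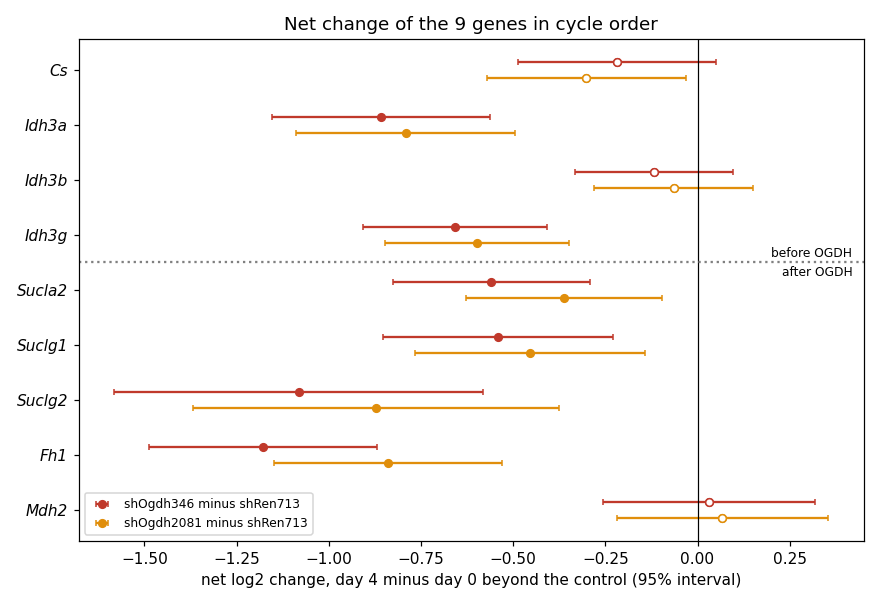
Net log2 change (day 4 minus day 0, less the control's change) of the 9 genes in cycle order for shOgdh346 and shOgdh2081, with 95% intervals; filled points have an adjusted p under 0.05 and the dotted line marks the OGDH step. The same 6 genes are filled for both hairpins, with Fh1 and Suclg2 farthest to the left and Mdh2 at the line of no change.

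The hairpins were compared with each other. For shOgdh346, 6 of the 9 genes had a net fall, against 18.4% of all genes called lower, and for shOgdh2081 the same 6 did, against 14.2%. Both net changes subtract the same control clones. The count for shOgdh2081 was 2 without the clone block, 2 with either one of the control clones left out and 3 without shOgdh2081 clone 5. The difference between the hairpins was called for 0 of the 9 genes, against 0.105% of all genes in either direction; 1 of the 9, Fh1, had an unadjusted p under 0.05, and DESeq2 called 0 of the 9. The difference was -0.34 ± 0.14 for Fh1 (SE; edgeR adjusted p = 0.467; 95% interval -0.65 to -0.03), shOgdh346 falling further. For the other 8 genes it lay between -0.21 and 0.08. Within shOgdh346 alone 7 of the 9 genes were called lower on day 4 than on day 0 (29.3% of all genes), within shOgdh2081 alone 7 (25.9%), and within the control 0 in either direction (6.88%). In the control 2 of the 9, Cs and Mdh2, had an unadjusted p under 0.05, at -0.20 ± 0.08 and -0.20 ± 0.09 (SE), and DESeq2 called 0 of the 9.

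The change in single clones is given as a description, with no test between clones. Among the 4 Ogdh clones, shOgdh2081 clone 3 had the smallest fall for all 9 genes, with a median change of -0.43. shOgdh346 clone 1 had the largest fall for 5 genes (Idh3g, Sucla2, Suclg1, Suclg2 and Fh1) and a median of -0.81. shOgdh2081 clone 5 had the largest for Cs and Idh3a, with a median of -0.69, and shOgdh346 clone 5 for Idh3b and Mdh2, with a median of -0.54. For the change of Ogdh itself the order was another one, with the largest change in shOgdh2081 clone 5 at -2.22 and the smallest in shOgdh346 clone 5 at -1.43. The day 4 level of Ogdh had the same clone order as the medians. It was 34.7 CPM in shOgdh346 clone 1, 35.7 in shOgdh2081 clone 5, 54.8 in shOgdh346 clone 5 and 69.1 in shOgdh2081 clone 3. Day 0 levels of Ogdh in these clones ran from 129 to 209 CPM. A link between Ogdh and the falls by clone was not tested. The 26 cell-cycle genes had median changes of -1.25 and -1.11 with shOgdh346 and of -1.10 and -0.95 with shOgdh2081 in the order of clone numbers.

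**Figure D4:**
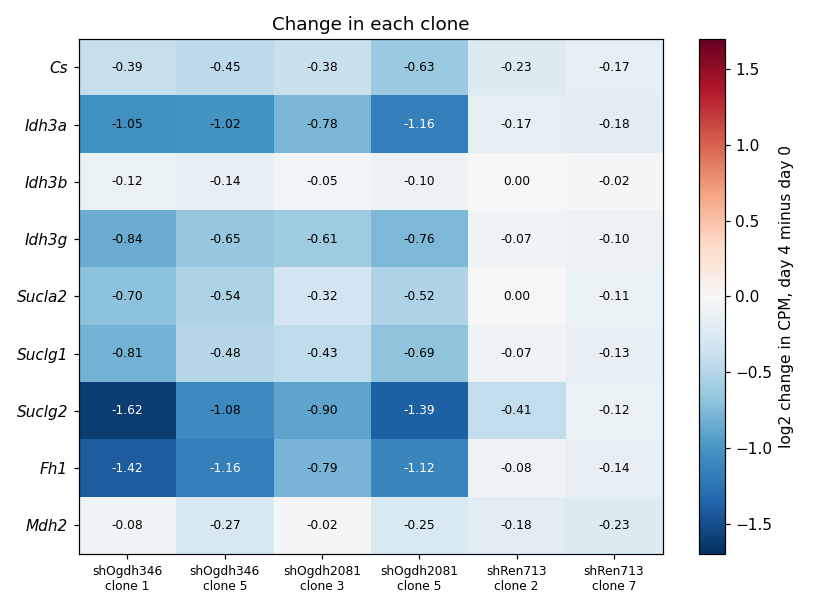
Log2 change in CPM from day 0 to day 4 of each of the 9 genes (rows, in cycle order) in each clone (columns), with the value in each cell; blue is lower on day 4. In the column of shOgdh2081 clone 3 every value is closer to 0 than in the other Ogdh clones.

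Levels on day 4 were also compared directly in a fit of the 6 clone sums of that day. Of the 9 genes, 4 were lower in the Ogdh clones, against 14.2% of all 13747 genes called lower. They were Suclg2 at -1.07 ± 0.15, Fh1 at -0.95 ± 0.12, Idh3a at -0.66 ± 0.18 and Idh3g at -0.55 ± 0.10 (log2 difference and SE; edgeR adjusted p = 0.0126, 0.0103, 0.0476 and 0.0192). Sucla2 at -0.35 ± 0.10 and Suclg1 at -0.34 ± 0.11 missed the threshold (edgeR adjusted p = 0.0558 and 0.0739). The count was 0 without control clone 2 or without control clone 7, and 2 without shOgdh346 clone 1; over all genes the calls in either direction numbered 3705, against 12, 133 and 1500 in these fits. The differences themselves lay between -1.03 and -0.90 for Fh1 and between -1.17 and -0.99 for Suclg2 over the 22 alternatives. On day 0, by edgeR, 0 of the 9 genes differed, as did 0% of all 13125 genes, of which 280 had an unadjusted p under 0.05; DESeq2 called 1 gene on day 0 and 0 of the 9. The day 0 differences of the 9 genes lay between -0.10 and 0.15.

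On the per-kilobase scale the order of levels on day 4 in the Ogdh clones was Mdh2 (117 CPM per kilobase), Cs (51.3), Idh3g (39.7), Idh3b (36.8), Idh3a (19.4), Fh1 (19.2), Suclg1 (17.7), Sucla2 (15.6) and Suclg2 (4.95). In the control clones on day 4 it was Mdh2 (111), Cs (60.8), Idh3g (58.1), Idh3b (39.8), Fh1 (37.0), Idh3a (30.6), Suclg1 (22.5), Sucla2 (19.9) and Suclg2 (10.4). These orders, and the Suclg2 share given above, rest on the deposited transcript lengths, and how those were defined was not checked. Idh3a and Idh3g, for example, stood at 98.3 and 107 CPM in the Ogdh clones on day 4. Their deposited lengths were 5072 and 2701 bases. In the Ogdh clones Fh1 and Idh3a stood with Suclg1 and Sucla2, the clone ranges of each neighbouring pair among these 4 overlapping, and so did those of Idh3g and Idh3b. In the control clones Cs and Idh3g were the neighbours whose clone ranges overlapped, with 2 clones to set each range. The summed level of the 9 genes was 1277 ± 112 CPM over the Ogdh clones (SD, n = 4), against 1551 ± 107 CPM over the control clones (SD, n = 2), on day 4. On day 0 it was 1782 ± 39.6 CPM in the Ogdh clones and 1725 ± 125 CPM in the control clones.

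The levels of the 9 genes were correlated over the 12 sums of clone and day, as a description, the sums sharing hairpins, clones and days. In 17 of the 36 pairs Pearson's r of log2 CPM was at least 0.9, highest between Fh1 and Suclg2 at 0.987. The share of all gene pairs that reach 0.9 over these sums was not computed, so the count has no baseline. Idh3b and Mdh2 had no pair that high, and the lowest r was between them, at 0.33. With Ogdh, r was 0.939 for Suclg2, 0.934 for Fh1 and 0.388 for Mdh2. Among genes of at least 5 CPM, those most like each member by the same r were Got2, Nsun2 and Strap for Cs (r up to 0.994), Heatr3, Nsun2 and Dnajc27 for Idh3a (up to 0.991), Acy1, Atp5c1 and Rtcb for Idh3g (up to 0.992), and Arpc5l, Mapk14 and Secisbp2 for Idh3b (up to 0.940). After the OGDH step they were Exosc9, Nol11 and Bpnt1 for Sucla2 (up to 0.983), Sms, Smyd2 and Cdc37 for Suclg1 (up to 0.982), Rpl15, Ubtf and Nbn for Suclg2 (up to 0.993), Usp10, Mettl1 and Utp20 for Fh1 (up to 0.997), and Psmd14, Tiparp and Dctn3 for Mdh2 (up to 0.937). The genes most like Fh1 had net changes of -0.69, -1.05 and -1.06, and those most like Mdh2 of -0.09, 0.20 and 0.13.

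Other genes of the cycle were read from lists, by the same mean net change, for which 19.8% of all genes were called lower and 17.9% higher. The list of 10 other mitochondrial cycle genes includes Ogdh, the target of the hairpins, whose fall was set by the design. Of these 10, 4 were lower, Ogdh among them, and 0 higher, with a median of -0.30. Beside Ogdh these were Idh2, the NADP-dependent isocitrate dehydrogenase, at -0.63 ± 0.11 (SE; edgeR adjusted p = 0.00192), and the succinate dehydrogenase subunits Sdha at -0.46 ± 0.09 (edgeR adjusted p = 0.00395) and Sdhd at -0.35 ± 0.10 (edgeR adjusted p = 0.0218). Dlst, the E2 subunit of the OGDH complex, had a positive value of 0.48 ± 0.17 that missed the threshold (edgeR adjusted p = 0.0511), and the shared subunit Dld had -0.21 ± 0.10 (edgeR adjusted p = 0.123). Of 4 assembly factors of succinate dehydrogenase, 1 was lower, Sdhaf1 at -0.73 ± 0.24 (edgeR adjusted p = 0.0373). This count is near the share over all genes.

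Routes into the cycle moved in both directions. Of 13 tested genes of pyruvate entry, 6 were lower and 3 higher, while 19.8% of all genes were called lower and 17.9% higher. Pcx, pyruvate carboxylase, was at -1.25 ± 0.18 (SE; edgeR adjusted p = 0.000893), Pdp2, a pyruvate dehydrogenase phosphatase, at -0.93 ± 0.16 (edgeR adjusted p = 0.00200) and Pdhb at -0.49 ± 0.08 (edgeR adjusted p = 0.00233), whereas Mpc2, of the mitochondrial pyruvate carrier, was higher by 0.78 ± 0.16 (edgeR adjusted p = 0.00467). Of 9 genes of glutamine and glutamate entry, 5 were lower and 0 higher, with a median of -0.55. Those with the smallest p were Gpt2, a mitochondrial alanine aminotransferase, at -1.47 ± 0.11, Pycr1, which makes proline, at -2.54 ± 0.20, Oat, ornithine aminotransferase, at -1.01 ± 0.10, and Psat1, of serine synthesis, at -1.54 ± 0.16 (SE; edgeR adjusted p = 6.61e-05, 9.23e-05, 0.000159 and 0.000224). Glud1, which makes 2-oxoglutarate from glutamate, had a net change of -0.03 ± 0.08.

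Of 12 tested genes of exit to the cytosol and cytosolic isoenzymes, 5 were lower (19.8% of all genes) and 0 higher (17.9%), with a median of -0.30. The lowest p belonged to Pck2, mitochondrial phosphoenolpyruvate carboxykinase, at -1.68 ± 0.11 (SE; edgeR adjusted p = 3.00e-05), Slc25a12, an aspartate-glutamate carrier, at -0.70 ± 0.09, and Mdh1, the cytosolic malate dehydrogenase, at -0.74 ± 0.12 (edgeR adjusted p = 0.00143). The net change of Mdh1 thus passed the test and that of Mdh2 did not; the difference between them was not tested. Slc25a13, the other aspartate-glutamate carrier, was at -0.45 ± 0.11 (edgeR adjusted p = 0.00951). Of 8 tested users of succinyl-CoA and genes of propionyl-CoA entry, 4 were lower and 1 higher, with a median of -0.54. Oxct1, which moves CoA from succinyl-CoA to ketone bodies, was at -0.89 ± 0.10, Mut, methylmalonyl-CoA mutase, at -0.73 ± 0.11 and Mmab, of its cobalamin cofactor, at -0.92 ± 0.13, while Alas1, which uses succinyl-CoA to begin haem synthesis, was higher by 0.86 ± 0.13 (SE; edgeR adjusted p = 0.000240, 0.00102, 0.000773 and 0.00116).

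Mitochondrial genes outside the cycle were counted in the same way, against 19.8% of all genes called lower and 17.9% higher. Of 25 nuclear subunits of the respiratory chain, 17 were lower and 0 higher, with a median of -0.42, among them Ndufv1 of complex I at -0.65 ± 0.10, Atp5o of ATP synthase at -0.62 ± 0.10, Ndufv2 of complex I at -0.54 ± 0.10 and Cyc1 of complex III at -0.55 ± 0.11. Of 17 import pores and chaperones, 12 were lower and 0 higher, with a median of -0.44, led by the chaperonins Hspd1 at -1.01 ± 0.13 and Hspe1 at -0.89 ± 0.13, the chaperone Trap1 at -0.93 ± 0.12 and the pore Tomm40 at -0.76 ± 0.12. Of 10 tested regulators of mitochondrial genes, 5 were lower and 1, Esrra, was higher by 0.51 ± 0.12 (SE; edgeR adjusted p = 0.00939). Those lower included Pprc1 at -0.64 ± 0.09, Ppargc1b at -1.33 ± 0.24, Tfb1m at -1.12 ± 0.18 and Gabpa at -0.47 ± 0.09 (SE). Nrf1, whose motif was searched above, had -0.25 ± 0.10 (edgeR adjusted p = 0.0713).

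Cell-cycle and maturation genes moved with these groups, and the shares over all genes were again 19.8% lower and 17.9% higher. All 26 listed G1/S and G2/M genes were lower, with a median of -1.01, among them Cenpf at -1.39 ± 0.09, Cdc6 at -1.26 ± 0.10, Hells at -1.20 ± 0.09 and Ccna2 at -1.18 ± 0.09. Of 19 neutrophil maturation genes, 15 were higher and 0 lower, with a median of 3.60, among them Lcn2 at 5.23 ± 0.25, S100a9 at 4.67 ± 0.24, Chil3 at 3.91 ± 0.14 and Itgam at 2.07 ± 0.11 (SE). The 9 neutrophil markers summed to 6190 to 43426 CPM in the Ogdh libraries and 279 to 1339 CPM in the control libraries on day 4, and on day 0 to 364 to 3112 CPM in the Ogdh libraries and 206 to 1958 CPM in the control libraries. The part of these genes in the falls of the 9 cycle genes was not tested.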

How the data were processed

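The authors deposited whole-number read counts per mouse gene for 24 libraries, with a transcript length and coordinates. The tools named in the submitters' processing notes are featureCounts 1.6.3, STAR 2.6.1a, Trimmomatic 0.36 and FastQC 0.11.5, with the build mm10 (GRCm38). Per the labels' protocols libraries were made from polyadenylated RNA with TruSeq chemistry and read as single ends; the same text names a human build, HTSeq and an RPKM matrix, whereas the table holds mouse genes and whole-number counts. For the strand setting and the multi-mapping rule, nothing is given in the sources used here. Adding up both libraries of a clone on a day gave 12 sums. edgeR 4.0.16 in R 4.3.3 (filterByExpr, TMM, robust quasi-likelihood) fitted the clone as a block with a day 4 term per hairpin (3 residual degrees of freedom); levels were fitted per day on 6 sums. Whether clones are separate cultures on each day is not stated, so p-values measure the spread between these clones. Clones are the pairs given by the labels; deviations from group means correlated between days at 0.60, 0.67 and 0.84. Repeat libraries differed by more than counting noise (chi-square per gene 6.78 to 10.3 on day 0 and 1.60 to 2.94 on day 4). Part of this had a constant direction. On day 0 replicate 2 was below replicate 1 in every clone for Cs, Idh3a, Sucla2 and Mdh2, and above it for Idh3b. On day 4 it was above in every clone for Cs and Mdh2, and below for Suclg1 and Fh1. The largest such difference among the 9 genes was 0.25 on the log2 scale. Adjusted p-values are Benjamini-Hochberg over all genes tested. Alternatives were RLE scaling, no filter, DESeq2 1.42.0, no clone block, day 0 libraries of 1 replicate, 1 fit of all groups for levels, and leaving out each library or clone. The 9 genes and the 11 lists were chosen with earlier results of these data known. Named genes are the 9, Ogdh, up to 4 per list with the smallest p, and the 3 most correlated genes for each of the 9, gene models passed over; Dld, Dlst, Esrra, Glud1, Nrf1 and the overlapping genes were named after their values were seen.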

Additional observations from a re-analysis of the deposited data

Results flagged for a closer look

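In 60 groups of 4 libraries (the 9 genes and Ogdh by hairpin and day), 2 held a library far from the other 3 by Dixon's 95% criterion, where chance gives about 1 in 20. Sucla2 on day 0 in shOgdh346 was at 91.3 CPM in clone 5 replicate 1, while the other libraries of the group were at 83.5 to 83.8 CPM. Suclg1 on day 4 in shRen713 was at 110.3 CPM in clone 7 replicate 1, while the others were at 100.5 to 102 CPM.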

How the results depend on the processing

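The count of called genes among the 9 was recomputed under 36 alternatives for changes and 22 for levels within a day, and no result turned its direction when called. For the mean net change it was 6, and 3 to 7 over fits that left out a library or clone, the 3 being without shRen713 clone 7 (Idh3a, Idh3g and Fh1). Fh1, Idh3a and Idh3g were called in all 36, Suclg2 in 35, Sucla2 and Suclg1 in 34, Cs in 1 and Idh3b and Mdh2 in 0; adjusted p ranged up to 0.0480 for Idh3a, 0.0247 for Idh3g and 0.00675 for Fh1. For the net change of shOgdh2081 the count was 6. It was 2 without the clone block, and it also moved when a clone was left out, as given above. The net change of shOgdh346 gave 4 to 6, and the change within each Ogdh hairpin 7 under every alternative. On day 4 the count of lower levels was 4; it was 6 with all groups in 1 fit, and 0 to 6 when a library or clone was left out (0 without control clone 2 or without clone 7, 2 without shOgdh346 clone 1). In these fits a lone clone of a hairpin was assumed to vary like the others. Over all genes, 5367 were called for the mean net change, against 2732 without the block, 2392 without shRen713 clone 2 and 2084 without clone 7. For shOgdh346 these counts were 2296, 2375 and 2108, and for shOgdh2081 1212, 1363 and 1118. Within the control, 980 genes were called, and 8 to 1978 under the alternatives; between the Ogdh hairpins 15, and 0 to 409; between levels on day 4, 12 to 5502; and on day 0, 0 to 417, the upper end with no filter. RLE scaling moved the median of all genes to 0.03 for the mean net change, and no filter to 0.10. The lowest count of the 9 genes in a library was 151, for Suclg2, which also had the largest SE of the 9 mean net changes (0.19, against 0.08 to 0.12); the parts of depth and of clone number in the SE were not tested.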
